A study of Drosophila melanogaster with 3 samples.

Results

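Chromatin immunoprecipitation with sequencing (ChIP-seq) located the DNA held by Knirps, a zinc-finger repressor of the nuclear receptor family encoded by a gap gene, in Drosophila melanogaster embryos. The 10 genes described here act in or beside Wingless signalling, namely wg, Wnt2, Wnt4, Wnt5, fz, fz2, arr, arm, nkd and pan. They were chosen by name out of 13945 protein-coding genes, with earlier results of these data known. Every one was found in the annotation. A peak summit was given to a gene when it lay in the gene body or within 5 kb of either end, which is called the territory of the gene below.

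The chromatin came from whole embryos of both sexes, pooled and aged 0 to 14 h, of the strain kni-GFP, in which Knirps carries GFP at its C-terminal end. An antibody against GFP was used according to the sample descriptions, although the antibody entry of the labels names kni. Chromatin was sonicated to fragments of 200 to 800 bp, and 3 replicates that the labels call biological form the only group. There is no untagged, mutant or staged group, so no contrast between conditions and no test was possible, and every value is a description. The line's copy number and the extent of the inserted DNA are not given in the sources used here. In whole embryos over this range of ages, strong occupancy in few cells and weak occupancy in many cannot be told apart.

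Wingless is a secreted Wnt protein that binds Frizzled receptors together with the co-receptor Arrow. Receptor activation frees Armadillo, the fly beta-catenin, from a complex that otherwise marks it for destruction, and Armadillo then joins the DNA-binding protein Pangolin (TCF) to switch on target genes. In the embryo the pathway maintains the segment polarity pattern of the epidermis and also acts in the midgut, heart and trachea, while naked cuticle (nkd) encodes an inhibitor that the pathway induces.

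All 10 genes held at least 1 summit of the optimal peak list, which has 7129 peaks. Across all protein-coding genes the share with a summit was 45.4%. The 10 genes together held 61 summits, and 4 of them (fz, fz2, arr and nkd) held 49, or 80.3%. Each of the 10 also had a summit within 500 bp of one of its own transcription start sites, against 18.4% of all genes, a measure that was added after the data were seen. The strongest peak lay at the start of arr and the next at a start of arm, whereas the peaks at the starts of Wnt4 and fz were among the weaker ones of the list.

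The DNA around 8 of these summits is printed to show which short words lie at the sites that the results turn on. Each line gives the summit base with 100 bases on either side, 5′ to 3′ on the + strand of dm6, read from the Release 6 assembly of RefSeq. Capitals mark words searched on both strands: AGAGCA (a core of the Knirps site), CTTTGAT (the HMG core of the Pangolin site), GCCGCC (the Pangolin helper site), GAGAG (GAGA factor) and CAGGTA (Zelda). GAGAG and AGAGCA can overlap by up to 4 letters, and then their capitals run together. The wg window, chr2L:7306912-7307112, covers the only optimal summit in the territory of the ligand gene, just upstream of its start. It holds AGAGCA on the minus strand as TGCTCT. The Wnt4 window, chr2L:7278024-7278224, is the only one of the 61 with CTTTGAT. The fz window, chr3L:14366160-14366360, is the strongest summit in that gene and holds none of the words. The fz2 windows are its strongest summit, chr3L:19171780-19171980, with 5 copies of GAGAG, and the intron summit with AGAGCA, chr3L:19182765-19182965. The windows of arm, chrX:1899731-1899931, and pan, chr4:70197-70397, lie at start sites, and that of nkd, chr3L:19016201-19016401, lies in an intron.

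wg promoter: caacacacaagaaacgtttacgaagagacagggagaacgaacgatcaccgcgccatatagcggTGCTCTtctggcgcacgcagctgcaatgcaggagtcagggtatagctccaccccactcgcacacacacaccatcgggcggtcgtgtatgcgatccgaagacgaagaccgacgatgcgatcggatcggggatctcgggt

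Wnt4 upstream: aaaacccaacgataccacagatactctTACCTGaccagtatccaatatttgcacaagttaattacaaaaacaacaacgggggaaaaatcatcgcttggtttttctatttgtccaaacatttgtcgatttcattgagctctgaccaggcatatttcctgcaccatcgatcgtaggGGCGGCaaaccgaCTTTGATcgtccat

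fz intron: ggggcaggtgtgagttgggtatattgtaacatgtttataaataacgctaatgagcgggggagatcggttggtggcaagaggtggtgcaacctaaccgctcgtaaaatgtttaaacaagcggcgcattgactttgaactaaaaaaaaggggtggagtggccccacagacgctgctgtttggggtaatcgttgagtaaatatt

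fz2 intron, strongest: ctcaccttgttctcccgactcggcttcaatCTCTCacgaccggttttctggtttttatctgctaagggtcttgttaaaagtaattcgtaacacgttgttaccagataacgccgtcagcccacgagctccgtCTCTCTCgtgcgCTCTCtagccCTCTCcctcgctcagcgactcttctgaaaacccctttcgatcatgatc

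fz2 intron, with the Knirps word: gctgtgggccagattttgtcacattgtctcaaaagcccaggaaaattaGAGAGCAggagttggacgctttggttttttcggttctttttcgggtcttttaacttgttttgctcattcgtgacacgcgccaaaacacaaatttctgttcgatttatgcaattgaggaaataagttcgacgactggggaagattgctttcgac

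arm start: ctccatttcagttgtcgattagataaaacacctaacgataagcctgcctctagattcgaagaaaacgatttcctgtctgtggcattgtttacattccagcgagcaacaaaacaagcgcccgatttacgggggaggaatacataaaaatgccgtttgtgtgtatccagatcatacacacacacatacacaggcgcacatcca

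nkd intron: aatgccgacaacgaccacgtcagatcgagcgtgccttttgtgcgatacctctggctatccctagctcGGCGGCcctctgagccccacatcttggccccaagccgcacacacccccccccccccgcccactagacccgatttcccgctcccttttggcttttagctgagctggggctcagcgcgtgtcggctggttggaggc

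pan start: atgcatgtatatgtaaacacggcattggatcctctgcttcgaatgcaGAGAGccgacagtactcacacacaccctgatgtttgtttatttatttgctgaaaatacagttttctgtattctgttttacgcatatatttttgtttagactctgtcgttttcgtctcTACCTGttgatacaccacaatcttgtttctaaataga

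In what follows, a signal value is the deposited strength of a peak as the authors computed it, on a scale that is not stated, and it serves only to rank peaks within 1 list. Rank 1 is the strongest peak. Each replicate list was read down to its own strongest 7129 peaks, and a summit was counted as found there if that set had one no more than 100 bp away. The number of reads behind each list is unknown, so a missing peak says nothing about the absence of binding.

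**Figure D1:**
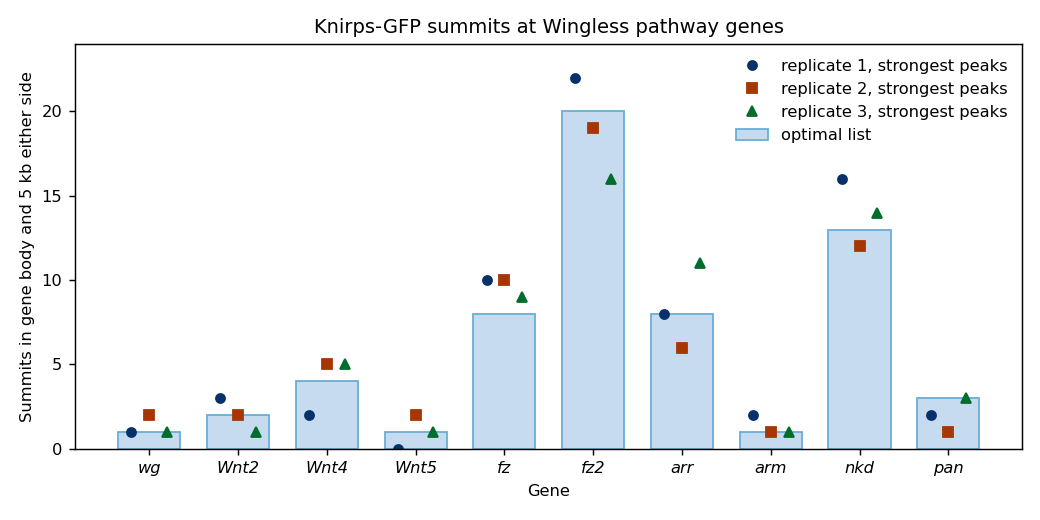
Number of summits in the territory (gene body and 5 kb either side) of each of the 10 genes, in the optimal list of 7129 peaks (bars) and among the strongest 7129 peaks of each of the 3 replicates (points). fz2 has 20 optimal summits and 22, 19 and 16 in the replicates, and wg, Wnt5 and arm have 1 optimal summit each.

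Among the replicates' strongest peaks, 9, 10 and 10 of the 10 genes held a summit in replicates 1, 2 and 3, against 47.3%, 45.4% and 45.6% of all genes. The exception was Wnt5 in replicate 1. The territories of the 10 genes held 66, 60 and 62 summits in the replicates, a mean of 62.7 ± 3.06 (SD, n = 3). The optimal list held 61, inside that range. It was pooled from the same replicates, and each replicate was cut to as many peaks, so alike totals are partly built in. These counts are for summits rather than separate regions: merging overlapping intervals left 50 regions of the 61 in the 10 territories and 6022 of 7129 in the whole list.

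The genes are long, which bears on how many summits they can hold. With all genes split by territory length into 4 equal classes, 9 of the 10 were in the longest class, where 63.2% of genes had a summit. Wnt5 fell in the next class, where the share was 45.8%. The shares were 41.1% and 31.7% in the remaining classes, which hold none of the 10. Over their 458.1 kb the territories had 13.3 summits per 100 kb, against 5.32 per 100 kb of the whole assembly and 5.9 over the territories of all protein-coding genes.

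**Figure D2:**
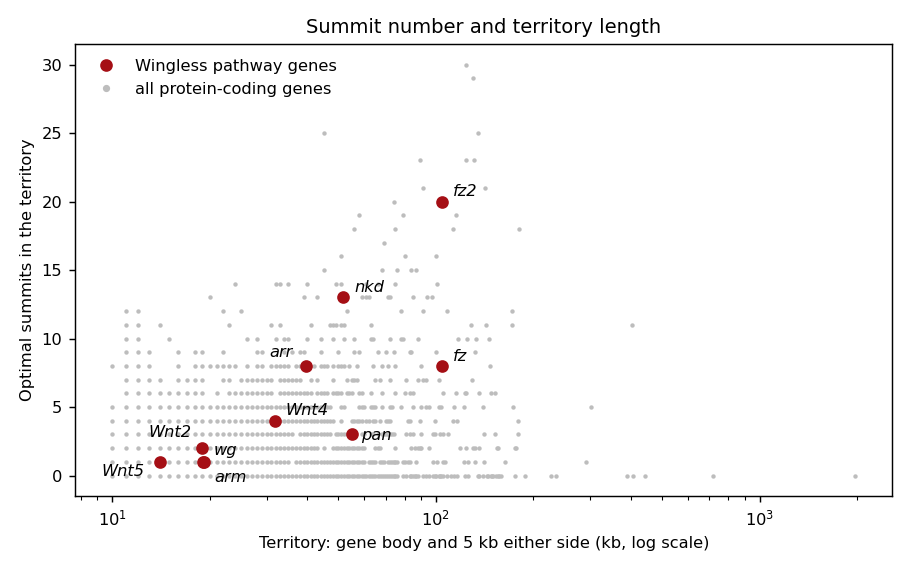
Territory length in kb (log axis, grey points at whole kb) against the number of optimal summits for all protein-coding genes (grey) and the 10 genes (labelled). fz and fz2 have almost the same length, 104.3 and 104.4 kb, with 8 and 20 summits.

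The ligand genes among the 10 held 1 to 4 optimal summits each, fewer than fz, fz2, arr and nkd, and of middling or weak rank. The median over all genes was 0. The ligand territories were also shorter, at 14.0 to 31.8 kb against 39.6 to 104.4 kb. Per 10 kb, Wnt4 held 1.26 summits and Wnt2 1.05, more than fz with 0.767, while Wnt5 held 0.714 and wg 0.523. The values for fz2, arr and nkd were higher, at 1.92 to 2.51. wg, which encodes the founding ligand of the pathway (chr2L:7307159-7316265, + strand, FBgn0284084), had 1 optimal summit, 147 bp upstream of its start, in the interval chr2L:7306752-7307271. Its signal was 327 and its rank 2838 of 7129. The same summit ranked 2207, 3029 and 5602 in the replicates, so it was found in all 3, lowest in replicate 3. A further 10 summits of the pooled list lay in the wg territory below the optimal threshold. The next optimal summit was 10936 bp away. With summits given to the nearest start alone wg held 2, so a second one lay outside its territory.

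Wnt4 lies beside wg on the same arm and encodes a Wnt that acts in cell movement and axon guidance as well as in the epidermis. It had 4 optimal summits, all weaker than the wg peak. The strongest lay in an intron 4475 bp downstream of the start, with a signal of 266 and rank 4121. The others lay 953 bp upstream, 1224 bp upstream and 88 bp downstream of the start, at ranks 5137, 5966 and 6181. Each of the 4 was found in 2 of the 3 replicates and none in all 3. The replicates held 2, 5 and 5 summits in the Wnt4 territory, a mean of 4 ± 1.73 (SD, n = 3).

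Wnt5, which encodes a ligand for the Derailed family of receptors in axon guidance, had 1 optimal summit in its 5′ UTR, 105 bp downstream of its start on chromosome X. Its signal was 279 and its rank 3820. It ranked 8847, 2395 and 4680 in the replicates, so replicate 1 did not hold it among its strongest 7129 peaks. Wnt2, which acts in the testis and in tracheal development, had 2 summits in its 5′ UTR, 289 and 491 bp downstream of its start and 202 bp apart. The nearer had a signal of 334 and rank 2722, and ranked 3219, 2215 and 4084 in the replicates. The farther had a signal of 206 and rank 6246, ranked 6092 and 4859 in replicates 1 and 2, and had no match in the list of replicate 3. In all, the 4 ligand genes had summits whose best ranks ran from 2722 (Wnt2) to 4121 (Wnt4).

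**Figure D3:**
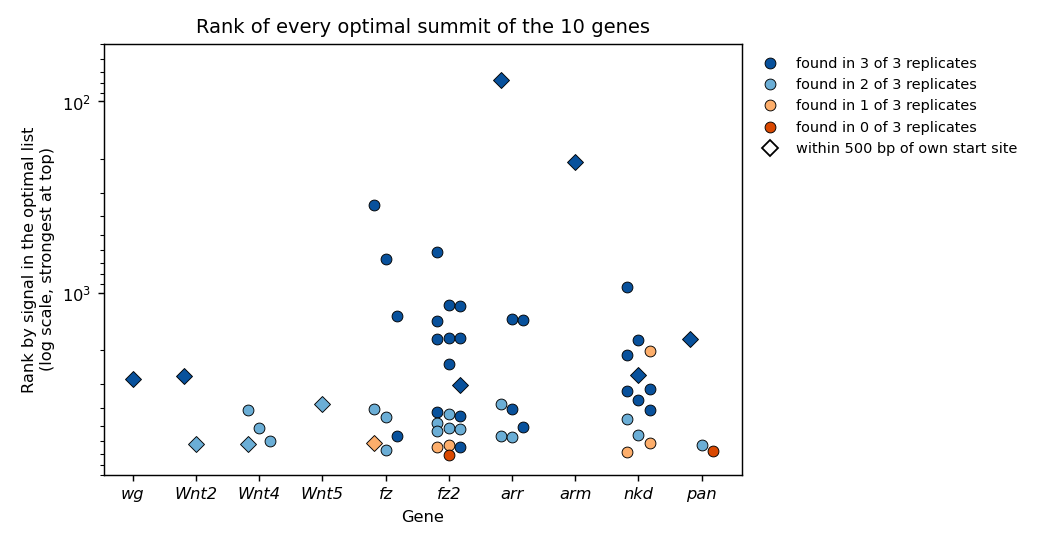
Rank of each of the 61 optimal summits (log axis, rank 1 strongest, of 7129), by gene, coloured by the number of replicates in which the summit was found, with diamonds within 500 bp of an own start site. Ranks run from 77 at arr to 7101 at fz2, and the summits of wg, Wnt2, Wnt4 and Wnt5 all lie at rank 2722 or weaker.

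The receptor genes fz and fz2 differed in how many summits they held. fz, which encodes a Wnt receptor that also directs planar polarity, had 8 optimal summits in 104.3 kb. The replicates held 10, 10 and 9. Its strongest peak, chr3L:14366055-14366518, had a signal of 790 and rank 347 and lay in an intron 91.92 kb from the start. It ranked 304, 239 and 863 in the replicates. The nearest start site to that summit belongs to CG13481, 3447 bp away. The next strongest, 29.66 kb into the gene, had a signal of 617 and rank 670.

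Another fz peak lay 1981 bp downstream of the start, with a signal of 469 and rank 1321. The summit nearest to the fz start, 482 bp downstream in the 5′ UTR, was weak, with a signal of 209 and rank 6099. It ranked 11667, 3983 and 10045 in the replicates, and so was found in replicate 2 alone. Of the 8 summits, 4 were found in all 3 replicates, 3 in 2 and 1 in 1, and 4 had an fz start as the nearest start site.

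fz2, which encodes the other main Wingless receptor, had 20 optimal summits in 104.4 kb, and 22, 19 and 16 in the replicates (19 ± 3, SD, n = 3). Of all genes, 9 held more than fz2. Among the 10 genes, fz, fz2, arr and nkd held at least 8, against 1.45% of all genes. These genes are long: only 0.7% to 4.8% of all genes have longer territories. The share among genes of like length is not given here. With 2 kb either side, arr held 5. The 20 fz2 summits merged into 15 separate regions. The strongest peak had a signal of 643 and rank 611, lay in an intron 1232 bp upstream of the nearest fz2 start, and ranked 988, 760 and 333 in the replicates. The summit 48 bp downstream of a start site inside the gene had a signal of 316 and rank 3041, and was found in all 3 replicates.

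The fz2 summits were grouped. A run of 8 lay within 8.3 kb around that internal start site, from 2912 bp upstream of it to 5405 bp downstream, and 7 of the 8 were found in all 3 replicates. A run of 5 lay within 3.1 kb further upstream, led by summits at ranks 1169 and 1174. For each of the 20 summits the nearest start site of a protein-coding gene was an fz2 start. In total 12 were found in all 3 replicates, and the weakest, at rank 7101, in none.

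arr encodes Arrow, the LRP-type co-receptor that Wingless signalling needs beside Frizzled (chr2R:13453640-13483229, minus strand, FBgn0000119). The summit 39 bp upstream of its start had a signal of 1238 and rank 77, the strongest of the 61. It ranked 72, 73 and 141 in the replicates. The arr territory held 7 further summits, of which 4 lay in arr introns and 3 beyond the 3′ end of the gene. Those 3 belonged by position to neighbours: they lay 150 and 525 bp upstream of a cnn start and 16 bp upstream of the Golgin97 start. The 4 intron summits had CG43192, a gene nested in arr, as the nearest start. Only 1 of the 8 therefore had arr itself as its nearest start.

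**Figure D4:**
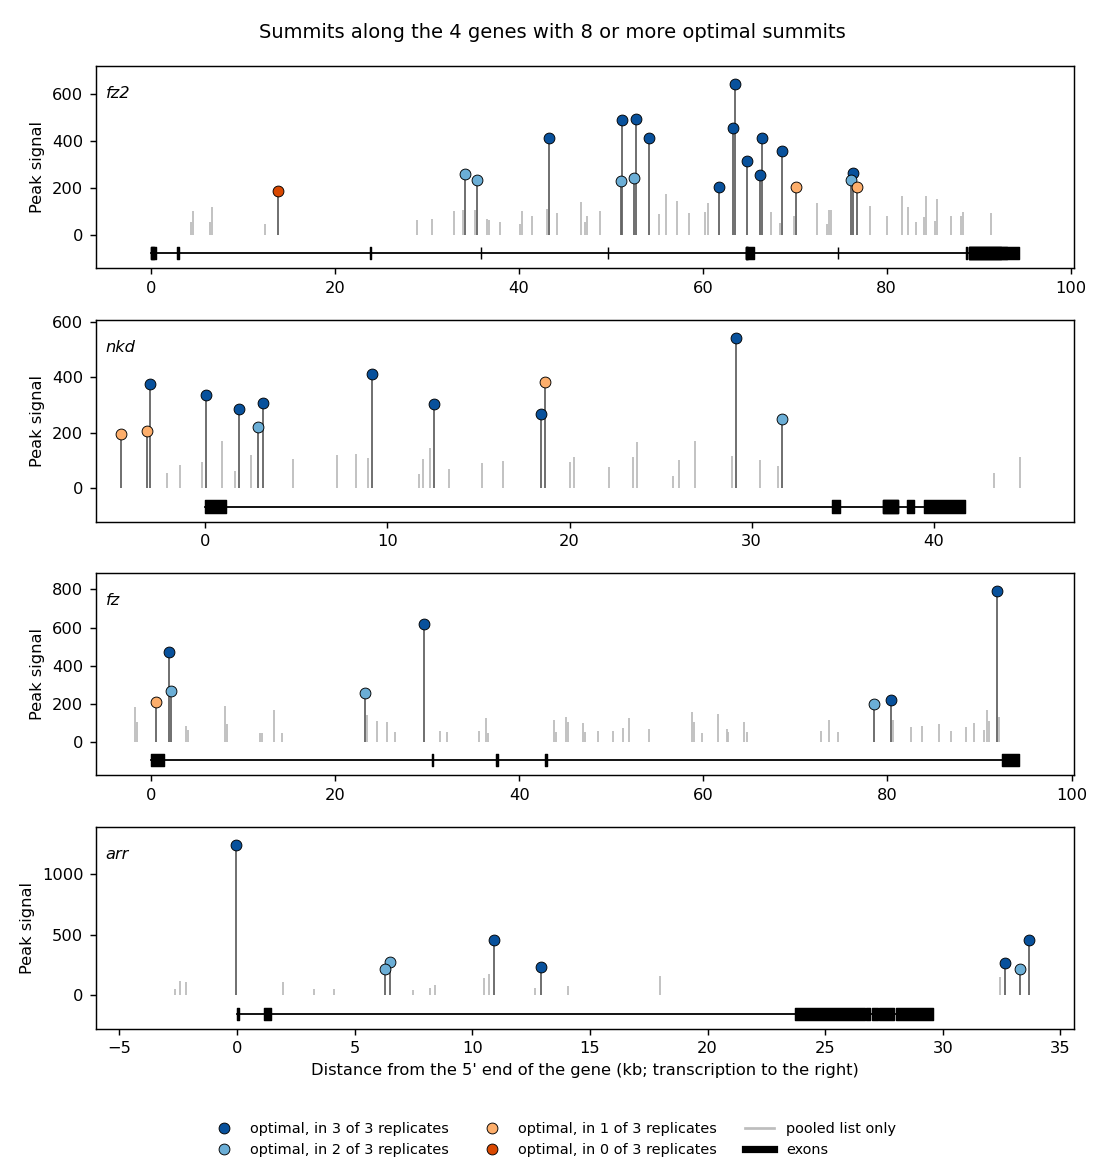
Optimal summits along fz, fz2, nkd and arr, with distance in kb from the 5′ end of the gene on the horizontal axis and signal value on the vertical axis; grey lines are pooled summits below the optimal threshold, and black bars are exons. The fz2 summits cluster around a summit 64.77 kb into the gene, which lies 48 bp from a start site, and the tallest arr peak stands at the start with a signal of 1238.

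arm encodes Armadillo, which carries the signal to the nucleus and also links cadherins to the cell cortex. It had 1 optimal summit on chromosome X, in the interval chrX:1899401-1900122, with a signal of 942 and rank 208. The summit was 221 bp upstream of one of the 4 arm start sites and within an intron of a longer transcript. It ranked 508, 106 and 236 in the replicates and was found in all 3. No other optimal summit lay within 22514 bp.

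nkd, the inhibitor gene, held 13 optimal summits in 51.7 kb, or 2.51 per 10 kb of territory. arr had 2.02, fz2 1.92, fz 0.767, pan 0.546 and arm 0.52 per 10 kb. The replicates held 16, 12 and 14 nkd summits, a mean of 14 ± 2 (SD, n = 3). The strongest, with a signal of 542 and rank 939, lay in an intron 29.15 kb from the start and ranked 890, 645 and 2022 in the replicates. The summit 37 bp downstream of the start, in the 5′ UTR, had a signal of 335 and rank 2704, and was found in all 3 replicates.

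A run of 7 nkd summits lay within 7.8 kb across the start, from 3185 bp downstream to 4612 bp upstream, and 4 of them were found in all 3 replicates. Over the whole gene 8 of 13 were. A strong summit did not recur within 100 bp. At 18.64 kb into nkd a summit with a signal of 385 and rank 2030 had a match in replicate 1 alone, at rank 1761. A second summit 203 bp away, at rank 4111, was found in all 3, at ranks 3009, 2920 and 3034. Its interval, chr3L:19026898-19027037, lies inside that of the first, chr3L:19026551-19027070, so the region itself recurred. The start site nearest to the strongest nkd summit is that of SmydA-2, 13049 bp away.

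pan encodes Pangolin, the DNA-binding partner of Armadillo, on chromosome 4. It had 3 optimal summits. The strongest, 108 bp upstream of a pan start and within an intron of a longer transcript, had a signal of 413 and rank 1751, and ranked 1396, 1488 and 3774 in the replicates. The other two were weak, at ranks 6268 and 6796. The first of these lay 4 bp upstream of the start of RpS3A, a ribosomal protein gene, and was found in 2 replicates. The second, 543 bp upstream of a pan start, ranked 7202, 8312 and 7141, outside the strongest 7129 of every replicate.

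At start sites the 10 genes were alike in a measure that was added after the data were seen. The genes too were chosen with earlier results of these data known, so the shares below are descriptions only. All 10 had a summit within 500 bp of an own start, against 18.4% of all genes, and the 7 of them with a single start site had one in 7 of 7 cases, against 12.5% of such genes. In the longest length class the count was 9 of 9, against 34.7%. The replicates gave 7, 10 and 9 of 10, against 18.9%, 17.6% and 19.1% of all genes. Replicate 1 lacked Wnt4, Wnt5 and fz, and replicate 3 lacked fz. The 11 summits concerned, 2 of them at Wnt2, ranked from 77 to 6246 with a median rank of 2838, and 7 were found in all 3 replicates. Leaving out a replicate and keeping only the optimal peaks found in both others left 9, 7 and 7 genes without replicates 1, 2 and 3. The share of all genes under that rule is not given here. fz was lost each time, and Wnt4 and Wnt5 were lost without replicate 2 or without replicate 3.

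The 61 summits were looked for in each replicate. All 3 replicates held 33 of them (54.1%), against 52.1% of all optimal peaks. A further 20 (32.8%) were in 2 replicates, against 31%, while 6 were in 1 and 2 in none. Single replicates held 51, 47 and 47 of the 61, or 79.2 ± 3.79% (SD, n = 3), against 77.9 ± 3.03% of all optimal peaks. The list was also split by rank into 4 equal classes. The rank comes from the pool of the same replicates, and each replicate was cut to its own strongest peaks. A fall in recovery with weaker rank is therefore partly built in, and only the shares of all peaks in the same class are comparable. In the strongest class 17 of 17 summits were in all 3 replicates, against 90.1% of all peaks there. In the next class 8 of 9 were, against 76.2%. In the weaker classes the counts were 6 of 18, against 37.7%, and 2 of 17, against 4.32%.

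The median signal of the 61 summits was 269, against 292 for all optimal peaks, and their median rank 4078, against 3565. They ran from 189 to 1238, and 5038 was the highest in the list. Without replicate 1, replicate 2 or replicate 3 the count of 61 became 38, 42 and 39, because only peaks found in both other replicates were kept. In the same order fz2 kept 12, 13 and 16 summits, nkd 8, 10 and 8, fz 6, 4 and 5, and arr 5, 8 and 5. Wnt4 kept 2, 2 and 0, pan 1, 2 and 1, Wnt2 1, 1 and 2, and Wnt5 1, 0 and 0, while wg and arm kept 1 each time. The pooled list of 30000 peaks held 255 summits in the territories, of which 194 were below the optimal threshold, and all 10 genes held at least 1, against 69.6% of all genes.

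Most of the 61 summits lay in introns, but 49 of the 61 were in the territories of fz, fz2, arr and nkd. Of the other genes, only Wnt4 had a summit in the intron class. Territories follow gene bodies, whereas the shares over all peaks also cover DNA far from genes. The intron and intergenic shares below are therefore not like for like. Promoters, here within 500 bp of any start site, held 15 (24.6%), against 37% of all optimal peaks. Introns held 40 (65.6%), against 40.7%, and intergenic DNA 6 (9.84%), against 20%. No summit outside the promoter class was in a UTR or coding exon, where 1.04%, 0.449% and 0.884% of all peaks lay in the 5′ UTR, coding and 3′ UTR classes. Of the 61, 49 were inside the body of their gene and 46 had that gene's start as the nearest. A neighbouring summit within 500 bp was present for 27 (44.3%), against 32.2%, and the median distance to the next summit was 1280 bp, against 1439 bp.

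Most of these summits lacked the Knirps word. Within 100 bp, AGAGCA occurred at 3 of 61 (4.92%), against 14.1% of all optimal peaks: at the wg start, the fz start and 1 fz2 intron summit. CTTTGAT occurred at 1 (1.64%), against 2.74%, and GCCGCC at 6 (9.84%), against 12.2%. GAGAG was at 19 (31.1%), against 37.1%, and CAGGTA at 6 (9.84%), against 7.71%. The windows held 45.7% G and C on average, against 45%. A match is a description of letters and says nothing of whether a factor was bound there. With replicate 1 or replicate 2 left out, AGAGCA remained at 1 of 38 and 1 of 42 summits.

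**Figure D5:**
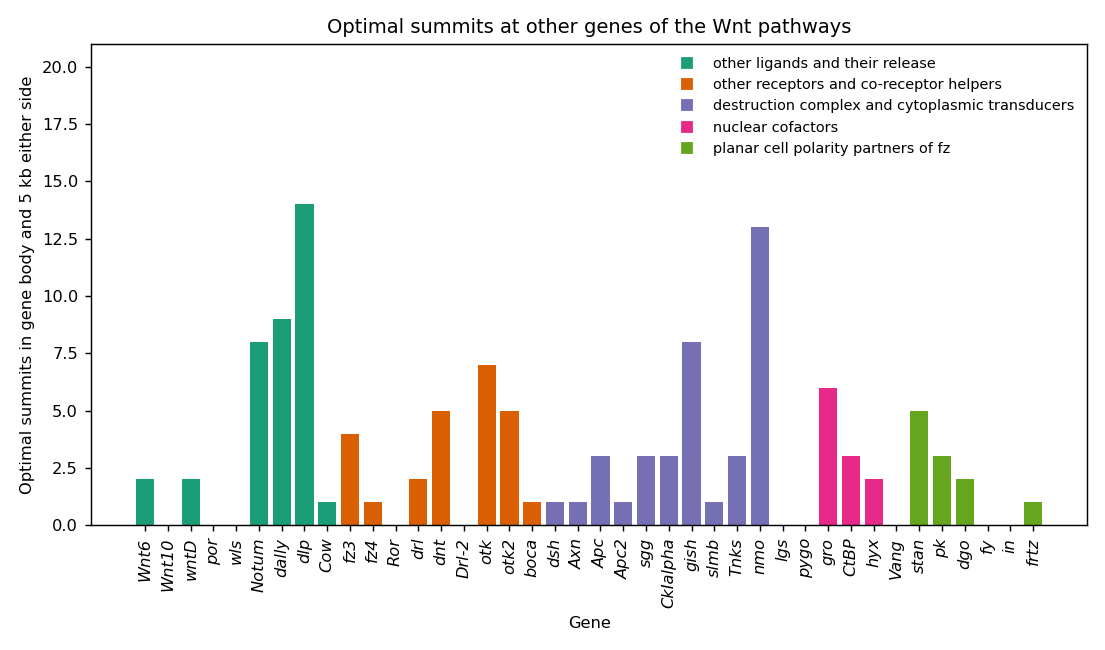
Number of optimal summits in the territory of each of the other 40 pathway genes, grouped by role. dlp has 14, nmo 13 and dally 9 summits, and 10 genes have none.

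Of 40 other pathway genes listed by role, 30 (75%) held an optimal summit, against 45.4% of all genes. With summits given to the nearest start alone, 22 of the 40 held one, against 22% of all genes. Setting aside the planar polarity genes, 26 of 33 (78.8%) held an optimal summit in their territory. Of the same 33 genes, 15 had a summit within 500 bp of an own start, against 18.4% of all genes and 34.7% of those in the longest length class. Among the other ligands and the genes for their release, 6 of 9 held summits, against 45.4% of all genes and 63.2% in the longest length class. dlp, a glypican that shapes the Wingless gradient, had 14, the strongest in an intron with a signal of 757 and rank 388. Notum, which encodes an enzyme that removes the lipid from Wnt proteins, had 8, led by an intron peak with a signal of 718 and rank 456. Wnt10, por and wls had none.

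Among the other receptors and helpers 7 of 9 held summits, against 45.4% of all genes and 63.2% of those in the longest length class, and Ror and Drl-2 did not. The off-track genes otk and otk2 are neighbours on chromosome arm 2R and share their strongest peak, with a signal of 945 and rank 202, in the 5′ UTR of otk. In the destruction complex and the cytoplasmic transducers, 10 of 10 held summits, against the same 45.4% and 63.2%, but for 5 of them no summit had the gene's own start as the nearest. The strongest peak was at gish, a casein kinase, 475 bp upstream of a start, with a signal of 2251 and rank 12 of the list. At sgg, the GSK3 kinase that phosphorylates Armadillo, a peak 371 bp upstream of a start had a signal of 901 and rank 236.

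Among the nuclear cofactors 3 of 5 held summits, against 45.4% of all genes and 63.2% in the longest length class. The median territory of each of these 4 roles, 17.0 to 24.3 kb, fell in that class. gro, the Groucho corepressor, had 6, the strongest 81 bp upstream of a start with a signal of 570 and rank 821. The strongest peak in the hyx territory, with a signal of 339 and rank 2629, lay 327 bp upstream of the start of the neighbouring gene neur. lgs and pygo, which encode the cofactors that join Armadillo to transcription, had none.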

How the data were processed

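Knirps ChIP-seq peak lists of 3 replicates of 1 group were used. Per the deposited notes, the authors called permissive lists per replicate and on the pooled alignments, all against 1 control alignment. They kept as optimal list the peaks past a threshold on the irreproducible discovery rate. Aligner, peak caller, versions and threshold are not given in the sources used here. Signal, the value of each peak as deposited by the authors, ranked peaks within a list only. The optimal list is exactly the 7129 strongest peaks of the pooled list of 30000. Read numbers are not given, so depth is unknown. No signal value was shared between replicates.

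Summits on dm6 arms (1-based) were set against Ensembl release 115 genes, and sequence came from Release 6. The 5 dm3 lists were not used. Words were counted on either strand. The genes named are all 10 members and, per role, the 2 other pathway genes with the strongest peak and those without a summit. Wnt6, nmo and dally, and the windows shown for their AGAGCA or CTTTGAT word, were added after their values were seen. Members and lists were chosen with earlier results of these data known. Alternatives were territory size, assignment, peak strength, matching distance and leaving out a replicate. The code (Python 3.11.15, numpy 2.4.6, pandas 2.3.3) was tested on simulated peaks.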

Additional observations from a re-analysis of the deposited data

How the results depend on the processing

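Depth is unknown, so it cannot be said which weak peaks more reads would keep. All 10 genes held a summit with territories of 2 or 10 kb either side, against 32.4% and 59.8% of all genes, and with summits given to the nearest start alone, against 22%. The count was 8 among the 3564 strongest optimal peaks, against 30.1% of all genes, and 8 to 10 with a replicate left out, against 34.4% to 36.3%. Of 61 summits, 26 were among those 3564 peaks, and 38 to 42 remained with a replicate left out. The other pathway genes numbered 22 to 24 of 40 with a replicate left out, against the same 34.4% to 36.3%. They numbered 27 and 34 with 2 and 10 kb either side, against the same 32.4% and 59.8%. With the nearest start alone they numbered 22, against 22%, and among the 3564 peaks 22, against 30.1%. The 33 summits found in all 3 replicates became 18 at 50 bp, 41 at 200 bp and 48 by any overlap of intervals. They became 54 with whole replicate lists, and 38 to 42 where only 2 replicates had to match. All these counts are out of 61, and the shares of all optimal peaks under the same settings are not given here. The 15 promoter summits became 8 of 26 among the 3564 peaks. They became 11 of 38, 11 of 42 and 10 of 39 without replicates 1, 2 and 3. AGAGCA was at 11 summits (18%, against 25.1% of all peaks) within 200 bp and at 1 of 26 among the 3564 peaks. It was at 1 of 38, 1 of 42 and 2 of 39 without replicates 1, 2 and 3. Apart from the 25.1%, the shares of all peaks for these promoter and word counts are not given here. Genes with a summit at an own start, a measure chosen with its alternatives after seeing the data, numbered 7 to 9 with a replicate left out and 8 at 250 bp. Of 70 counts of single genes under alternatives, 40 were within 1.5 times the reported count and 5 fell to 0. Where fewer peaks, a shorter distance or fewer replicates enter, the change follows from that construction. No paired analysis was possible because the design has 1 group.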

Other observations

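Planar cell polarity uses Frizzled without Wingless, and 4 of 7 genes of that group held an optimal summit, against 45.4% of all genes. At stan, the Flamingo cadherin, the strongest of 5 summits lay in an intron with a signal of 507 and rank 1086. At pk the strongest of 3 lay 18 bp downstream of a start with a signal of 324 and rank 2885. Vang, fy and in held none. Among the neighbours of wg on arm 2L, Wnt6 held 2 summits, the strongest in its own intron with a signal of 496 and rank 1151, while Wnt10 held none.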
